A study of Mus musculus with 6 samples.

Results

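The genes described here are 8 genes of cholesterol synthesis, its control and cholesterol export, measured in primary mouse Sertoli cells. They were chosen by symbol, and each of the 8 symbols matched 1 row among the 29275 genes of the tables. Of the 8, 5 encode enzymes of the pathway (Hmgcs1, Idi1, Fdft1, Sqle and Lss), 2 encode its sterol sensing (Srebf2 and Insig1), and Abca1 encodes an exporter. No gene of lipoprotein uptake is among the 8, so uptake was followed in a wider list of 57 genes of the same metabolism, all of which had a row.

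RNA was sequenced from 6 cultures, 3 labelled wild-type and untreated (WT) and 3 labelled Arhgef15 cKO, a conditional knockout of the guanine nucleotide exchange factor gene Arhgef15 in Sertoli cells. Both genotypes were grown in the same medium with serum and EGF. The lipoprotein content of that medium was not tested. The sources used here do not give the Cre line, the deleted exons, the age of the mice or the number of animals behind a culture, and p-values therefore measure the spread between these cultures, which may be technical. Values are FPKM, fragments scaled to exon length and to the mapped total of the library, so that levels can be compared between genes. Values of a group are given in the order of its replicates 1, 2 and 3.

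Cells make cholesterol from acetyl-CoA through mevalonate, isoprenoids, squalene and lanosterol. When membrane sterol is low, the transcription factor SREBP-2 is released from the endoplasmic reticulum and raises the enzymes and the receptors for lipoprotein uptake. INSIG proteins hold it back when sterol is plentiful, and oxysterols then act through LXR receptors on exporters such as ABCA1. Sertoli cells take up and recycle large amounts of lipid from germ cell remnants and supply sterol to developing germ cells.

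RefSeq promoter windows were on hand for 6 of the 8 genes (mouse build GRCm38.p6). Fdft1 and Sqle had no entry. The 250 bases before the annotated start are shown for a gene with a wide, a middling and a narrow spread between libraries (Insig1, Hmgcs1 and Lss). Capitals mark matches, on either strand, to the sterol response element core TCACNCCAC, the CCAAT box bound by NF-Y and the E-box CACGTG. No matches overlap in the windows shown.
Insig1, chr5:28071162-28071411, plus strand: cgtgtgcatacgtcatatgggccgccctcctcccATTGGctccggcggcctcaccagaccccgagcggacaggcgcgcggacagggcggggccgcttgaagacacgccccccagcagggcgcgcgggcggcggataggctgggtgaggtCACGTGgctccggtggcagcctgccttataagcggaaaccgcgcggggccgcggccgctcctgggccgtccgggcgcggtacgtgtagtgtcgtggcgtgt
Hmgcs1, chr13:119690101-119690350, plus strand: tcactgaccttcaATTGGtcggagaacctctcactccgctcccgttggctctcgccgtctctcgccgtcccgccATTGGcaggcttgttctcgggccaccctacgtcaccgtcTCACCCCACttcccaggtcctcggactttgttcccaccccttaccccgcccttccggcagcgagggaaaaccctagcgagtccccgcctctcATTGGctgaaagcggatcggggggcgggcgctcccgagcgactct
Lss, chr10:76531355-76531604, plus strand: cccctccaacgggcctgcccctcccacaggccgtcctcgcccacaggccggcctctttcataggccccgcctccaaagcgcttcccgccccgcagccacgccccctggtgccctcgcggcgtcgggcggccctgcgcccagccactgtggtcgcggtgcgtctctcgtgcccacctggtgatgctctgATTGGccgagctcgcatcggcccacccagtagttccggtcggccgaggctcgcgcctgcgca

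The sterol element core was found in 1 of the 6 windows, that of Hmgcs1, against 1.05% of all 32851 windows of this length. A CCAAT box was found in 5 of the 6 (not in Abca1), against 33.8% of all windows, and the Hmgcs1 window held 3. The E-box was found in 2 of the 6, Insig1 and Abca1, against 6.02%. These are letter matches in a short window, and neither a match nor its absence shows whether a factor binds.

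The libraries held between 16790000 and 20320000 fragments, as read from the step between neighbouring FPKM values. For 7 of the 8 genes the value came out as a whole number of fragments within 0.02 in every library, from 224 (Idi1 in WT replicate 1) to 7170 (Abca1 in WT replicate 3). Counting error, taken as the Poisson SD, was therefore at most 6.68% of a value and covers sampling of fragments only. It is an SD and not a bound. For Fdft1 it did not come out whole with the exonic length used, and no counting error is given. WT replicate 3 correlated across genes at 0.860 and 0.898 with the other WT libraries and at 0.921 to 0.947 with the cKO libraries, so it stood apart from its own group. The 13 Sertoli markers summed to 1099 to 1389 FPKM in WT and 973.8 to 1418 FPKM in cKO libraries, but much of that sum was Vim, which stromal cells also express, at 580.1 to 1117 FPKM in WT and 457.4 to 637.5 FPKM in cKO libraries. By mean, 9 of the 13 were higher and 4 lower in cKO. Sox9, a defining Sertoli factor, was at 5.97 and 5.10 FPKM in WT replicates 1 and 2 and at 20.2 to 35.6 FPKM in the other 4 libraries, and Wt1 was at 2.75 and 4.17 FPKM against at least 14.9 FPKM. The FSH receptor gene Fshr was listed at 0 in WT replicates 1 and 2 and at 0.202 to 1.42 FPKM elsewhere. Not all Sertoli markers followed. Inhbb went the other way, at 65.7 and 85.4 FPKM in WT replicates 1 and 2 and at 6.04 to 32.6 FPKM elsewhere. Gata4 was at 63.1 and 48.4 FPKM in those libraries and at 29.6 to 55.9 FPKM elsewhere. The 14 macrophage markers, all above 0 in every library, summed to 1370, 1103 and 308.8 FPKM in WT replicates 1, 2 and 3 and to 202.3 to 333.6 FPKM in cKO libraries. The sums of other lists also set WT replicates 1 and 2 apart. The 6 peritubular myoid markers, mostly Acta2, summed to 3050, 2399 and 506.1 FPKM in WT and 672.7 to 1263 FPKM in cKO libraries. By mean, 3 of the 6 were higher and 3 lower in cKO. Acta2, Tagln and Actg2 set WT replicates 1 and 2 apart, whereas Myh11, Cnn1 and Des did not. The 8 endothelial markers summed to 36.2, 30.9 and 62.6 FPKM in WT and 56.0 to 98.2 FPKM in cKO libraries. The Leydig, stromal and germ cell sums did not set these libraries apart, but single Leydig and stromal markers did, in both directions. Hsd3b1 was at 139.4 and 79.8 FPKM in WT replicates 1 and 2 and at 8.99 to 18.7 FPKM elsewhere. Star was at 29.7 and 22.8 FPKM against 55.5 to 94.2 FPKM. Tcf21 was at 58.4 and 78.2 FPKM against 5.49 to 27.4 FPKM, and Dcn at 13.9 and 24.0 FPKM against 35.8 to 94.0 FPKM. Arhgef15 itself was at 0.0237 to 0.349 FPKM in WT and 0.322 to 0.501 FPKM in cKO libraries and so was no lower in cKO. A value over the whole gene does not check a deletion of unknown exons.

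All 8 genes passed the filter on low values (1 FPKM or more in at least 3 libraries). None of them differed between the genotypes by the test across all genes (limma on log2(FPKM + 1), Benjamini-Hochberg adjusted over 12284 tested genes, threshold 0.05). Their adjusted p-values ran from 0.732 to 0.984, and 0.0163% of all tested genes, 2 of them, passed. At an unadjusted p under 0.05 the count was 0 of 8, against 6.81% of all tested genes. The 3 cKO values lay clear of the 3 WT values in 2 of the 8, Fdft1 and Lss, both lower in cKO, where 11.3% of all tested genes had groups that did not overlap and 5.01% did so with cKO lower. With 8 genes, 2 is too small a count to set against those shares. The median difference of the 8 was 0.04 on the log2(FPKM + 1) scale, beside 0.08 over all tested genes, with 5 above 0 and 3 below.

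**Figure D1:**
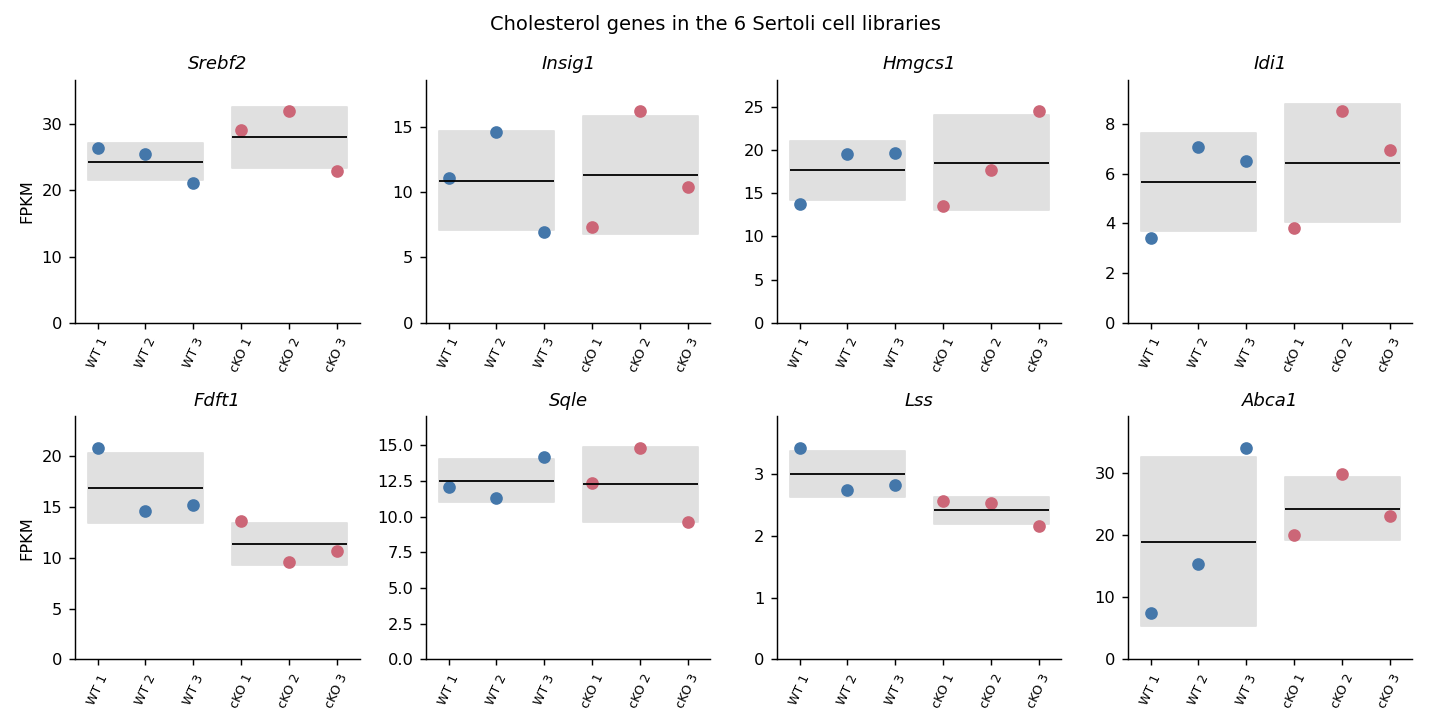
FPKM (vertical axis, from 0) of the 8 genes in each library, WT in blue and cKO in red; lines are group means and grey bands 1 SD (n = 3 each). The groups lie apart only for Fdft1 and Lss, and Abca1 runs from 7.53 FPKM in WT replicate 1 to 34.0 FPKM in WT replicate 3.

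By mean level over the 6 libraries the order was Srebf2 (26.2 FPKM), Abca1 (21.6), Hmgcs1 (18.1), Fdft1 (14.1), Sqle (12.4), Insig1 (11.1), Idi1 (6.04) and Lss (2.70 FPKM). The ranges of each pair of neighbours in this order overlapped. Insig1 was above Idi1 in 6 of 6 libraries, whereas Sqle and Insig1 changed places in 3 of 6, as did Abca1 and Hmgcs1. Lss, at the end of the order, was below Idi1 in 5 of 6 libraries.

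Srebf2 encodes SREBP-2, the factor that drives the pathway. It was at 26.3, 25.6 and 21.1 FPKM in WT and at 29.2, 31.9 and 23.0 FPKM in cKO libraries. cKO replicates 1 and 2 were the highest of all, and cKO replicate 3 lay inside the WT range. The means were 24.4 ± 2.81 and 28.0 ± 4.58 FPKM (SD, n = 3 each), a log2 difference of 0.19 (95% interval -0.30 to 0.68; limma, adjusted p = 0.896). Without cKO replicate 3 the groups no longer overlapped and the difference was 0.32 (limma, adjusted p = 0.999).

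Insig1 encodes the sterol-responsive anchor that retains the SREBP complex and is itself a target of SREBP-2. It was at 11.1, 14.6 and 6.97 FPKM in WT and at 7.34, 16.2 and 10.4 FPKM in cKO libraries. The lowest and the highest library differed 2.32-fold, with WT replicate 3 and cKO replicate 1 low and replicate 2 of each genotype high. The genotype means, 10.9 ± 3.80 and 11.3 ± 4.48 FPKM, were far closer than the libraries within a genotype (log2 difference 0.04, 95% interval -0.78 to 0.86; limma, adjusted p = 0.984). The direction of so small a difference was not stable: it was -0.010 with median-ratio scaling, and -0.22 without WT replicate 3.

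Hmgcs1 encodes the HMG-CoA synthase of the cytosol, the entry to the mevalonate pathway. It was at 13.7, 19.6 and 19.7 FPKM in WT and at 13.5, 17.7 and 24.5 FPKM in cKO libraries. Replicate 1 was the lowest library of each genotype, and cKO replicate 3 the highest of all. The means were 17.7 ± 3.42 and 18.6 ± 5.54 FPKM (log2 difference 0.05, 95% interval -0.58 to 0.68; limma, adjusted p = 0.978), and the sign turned with median-ratio scaling (-0.0045).

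Idi1 encodes isopentenyl-diphosphate isomerase, which interconverts the isoprene units. It was at 3.41, 7.05 and 6.50 FPKM in WT and at 3.81, 8.50 and 6.96 FPKM in cKO libraries. As with Hmgcs1, replicate 1 was the lowest of each genotype, and here the gap to the other libraries was wide. The means were 5.65 ± 1.96 and 6.42 ± 2.39 FPKM (log2 difference 0.15, 95% interval -0.66 to 0.96; limma, adjusted p = 0.951). Its neighbouring paralog Idi2 had a mean of 0.00728 FPKM in WT and was listed at 0 in cKO libraries.

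Fdft1 encodes squalene synthase, the first enzyme committed to sterols. It was at 20.8, 14.6 and 15.2 FPKM in WT and at 13.6, 9.64 and 10.7 FPKM in cKO libraries. All 3 cKO libraries lay below all 3 WT libraries, with WT replicate 1 well above the rest and 0.987 FPKM between WT replicate 2 and cKO replicate 1. The difference was -0.53 (95% interval -1.07 to 0.01) and did not pass (limma, adjusted p = 0.732; exact two-sided permutation p = 0.1, the smallest that 3 against 3 allows). It stayed below 0 with each library left out, from -0.66 to -0.38.

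Fdft1 and Ctsb, the gene of the lysosomal protease cathepsin B, lie on opposite strands and share 774 exonic bases in the GENCODE M21 annotation, of 4227 exonic bases of Fdft1. Ctsb was at 287.4, 258.2 and 226.0 FPKM in WT and at 205.1, 136.5 and 162.4 FPKM in cKO libraries, many times the level of Fdft1. Its groups also lay apart with cKO lower, and in both genes WT replicate 1 was highest, cKO replicate 1 was the highest cKO library and cKO replicate 2 was the lowest of all. How the authors' counting used strand is not known here, so fragments of the shared stretch cannot be assigned, and the part of Ctsb in the Fdft1 values was not tested. The macrophage marker sums above were lower in all cKO libraries than in WT replicates 1 and 2, with WT replicate 3 inside the cKO range. Of these markers, Ctss and Fcgr3 had WT replicate 3 above all cKO libraries, and the others did not. The part of macrophages in the Fdft1 and Ctsb values was not tested.

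**Figure D2:**
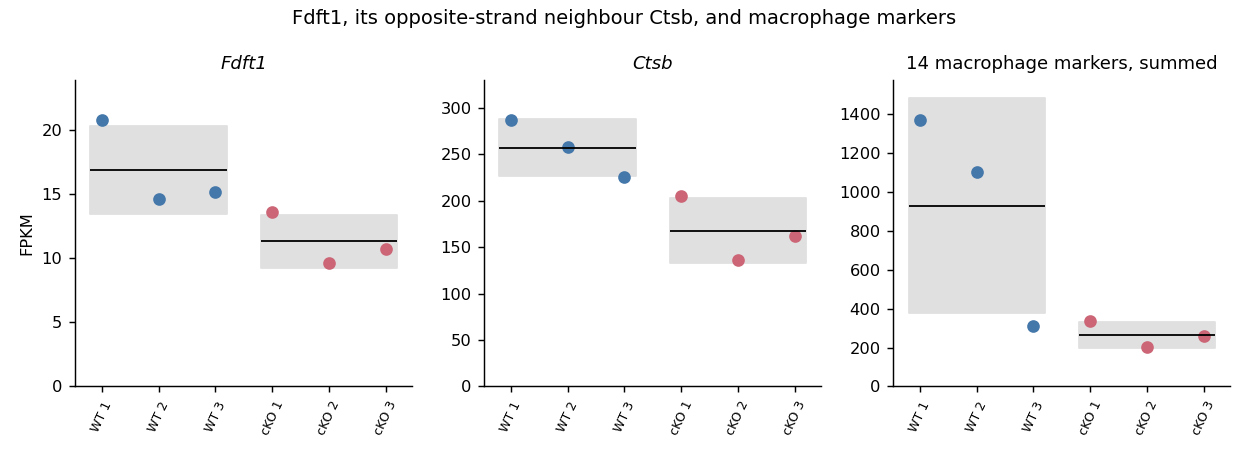
FPKM (vertical axes, from 0) of Fdft1, of Ctsb and of 14 macrophage markers summed, by library, with group means and 1 SD (n = 3 each). Both genes are lower in each cKO library than in each WT library; the macrophage sum in WT replicate 3, 308.8 FPKM, lies among the cKO libraries.

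Sqle encodes squalene epoxidase, a rate-limiting step behind squalene synthase. It was at 12.1, 11.3 and 14.2 FPKM in WT and at 12.4, 14.8 and 9.59 FPKM in cKO libraries. The cKO libraries held both the highest and the lowest value. The means were 12.5 ± 1.49 and 12.3 ± 2.60 FPKM, a log2 difference of -0.04 (95% interval -0.57 to 0.48; limma, adjusted p = 0.977), which became 0.04 without WT replicate 3.

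Lss encodes lanosterol synthase, which closes the sterol rings. It was at 3.42, 2.73 and 2.82 FPKM in WT and at 2.55, 2.53 and 2.16 FPKM in cKO libraries. The groups did not overlap, but WT replicate 2 and cKO replicate 1 were 0.179 FPKM apart. In these libraries counting error alone gave exact Poisson 95% intervals of 2.51 to 2.97 and 2.34 to 2.78 FPKM, which overlap. The difference was -0.22 (95% interval -0.70 to 0.25) and did not pass (limma, adjusted p = 0.879; exact two-sided permutation p = 0.1). With quantile normalization the groups overlapped. An antisense gene sharing 381 exonic bases with Lss had means of 0.0398 FPKM in WT and 0.147 FPKM in cKO libraries, far below Lss.

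Abca1 encodes the transporter that loads cholesterol onto apolipoproteins and is a target of LXR. It was at 7.53, 15.4 and 34.0 FPKM in WT and at 20.0, 29.9 and 23.1 FPKM in cKO libraries. The WT libraries alone spanned 4.52-fold, and WT replicate 3 was the highest of all, so the groups overlapped. The means were 19.0 ± 13.6 and 24.3 ± 5.04 FPKM, a log2 difference of 0.56 (95% interval -0.56 to 1.67; limma, adjusted p = 0.869). The value rested on single WT libraries. It was 1.08 without WT replicate 3, where the groups lay apart (limma, adjusted p = 0.112), and 0.06 without WT replicate 1 (limma, adjusted p = 0.997). Abca1 was low in WT replicates 1 and 2 and high in WT replicate 3. Those low libraries had the high macrophage and peritubular myoid sums, the latter mostly Acta2, and the low endothelial sums. Of the Sertoli markers, Sox9 and Wt1 were also low in them and Inhbb was high. The part of cell makeup in this was not tested, and fewer cells of a type cannot be told apart from less RNA per cell in such cultures.

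**Figure D3:**
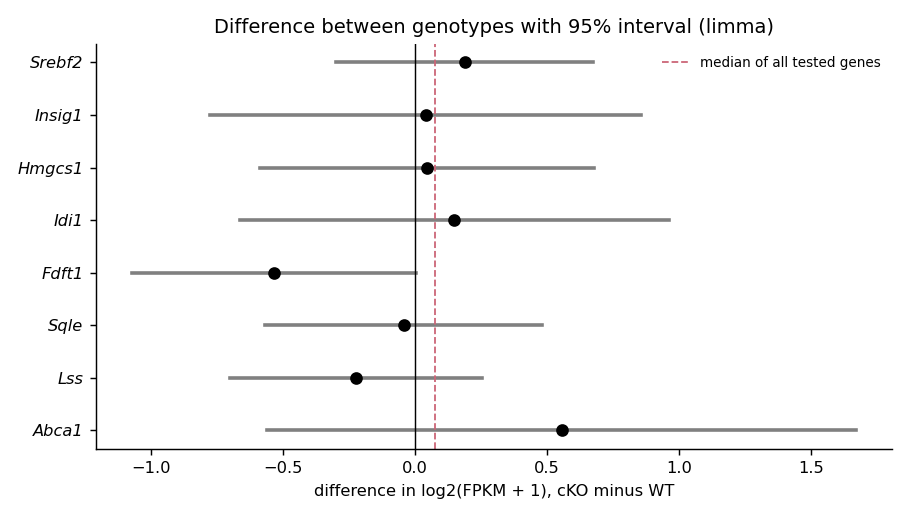
Difference in log2(FPKM + 1), cKO minus WT, for each gene (points) with its 95% interval (bars, limma, 3 libraries per genotype); the dashed line is the median of all tested genes. Each interval includes 0, and that of Fdft1 ends at 0.01.

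The genes differed in how steady they were within a genotype. The residual SD of log2(FPKM + 1) was 0.11 for Lss, smaller than that of all but 4.01% of tested genes, and 0.20 to 0.25 for Srebf2, Sqle and Fdft1. It was 0.35 for Hmgcs1, close to the median gene (0.34), 0.49 for Idi1 and 0.50 for Insig1. For Abca1 it was 0.75, larger than that of 92.5% of tested genes. The 95% intervals of the difference were accordingly narrowest for Lss and Srebf2 and widest for Abca1.

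**Figure D4:**
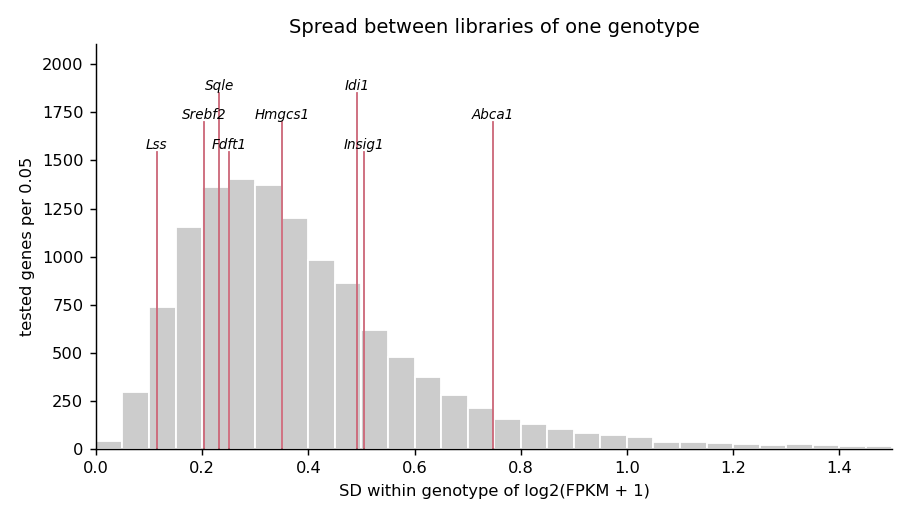
Number of tested genes (vertical axis) by SD within genotype of log2(FPKM + 1) (horizontal axis, bins of 0.05); red lines mark the 8 genes. Lss, a low gene whose log2 spread is narrowed by adding 1, sits near the steady end at 0.11, and Abca1 in the tail at 0.75.

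The profiles of the 8 over the 6 libraries were not each other's closest. Likeness was taken as the root mean square difference of log2(FPKM + 1) after centring each gene on its own mean. Genes were not scaled to equal spread, so a small distance can come from narrow spread, as in Lss, without the 2 genes moving together. The nearest of the 8 to Fdft1 was Lss, at place 512 of 12283 other tested genes, and the nearest to Sqle was also Lss, at place 406. Hmgcs1 and Idi1 were nearest to each other, at places 2043 and 712. Insig1 was nearest to Srebf2 (place 979), Srebf2 to Sqle (place 1048), Lss to Sqle (place 1267) and Abca1 to Idi1 (place 2411). Among all tested coding genes with a mean of at least 5 FPKM, the closest were Crim1, Arhgap42 and Tfb2m to Hmgcs1 (distances 0.051 to 0.065), Arrdc4, Gpr176 and Nrp2 to Insig1 (0.13 to 0.16), and Dcbld2, Akap13 and Cpeb4 to Abca1 (0.11 to 0.13). With 6 libraries this is a description only.

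The other enzymes of the pathway had lower means on the log2 scale in cKO libraries in 12 of 14 tested cases, with a median of -0.19 beside 0.08 over all tested genes, of which 40.2% were below 0. None passed (limma, smallest adjusted p = 0.732), and 0 had an unadjusted p under 0.05. Several of the 12 lower means were close to 0, at -0.07 to -0.03. The count of 12 is given only for the fit to all 6 libraries. Groups lay apart in 2 of the 14, both lower in cKO, beside 5.01% of all tested genes apart in that direction and 11.3% in either. Sc5d, which introduces a double bond into the sterol ring, was at 28.0, 26.0 and 30.6 FPKM in WT and at 21.6, 21.4 and 19.8 FPKM in cKO libraries (log2 difference -0.41, SE 0.18). Msmo1, the sterol C4-methyl oxidase, was at 18.0, 18.7 and 27.3 FPKM and at 15.8, 16.2 and 16.5 FPKM (-0.36, SE 0.22). Acat2, which makes acetoacetyl-CoA, had 16.2 ± 3.46 and 11.7 ± 1.42 FPKM, with WT replicate 3 inside the cKO range. One enzyme gene, Fdps, was not tested: it was listed at 0.212 to 0.532 FPKM in all 6 libraries, below the filter and below all 14 others on average, and it is named here because it was the sole gene of the lists left out. Copies of Fdps and overlapping genes were not looked up. Whether its low values come from low expression or from the counting was not tested.

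The 8 genes that process or release SREBP did not pass either (limma, adjusted p threshold 0.05; 0 with an unadjusted p under 0.05), with a median of 0.17 and 0 with groups apart. Srebf1, which encodes the factor SREBP-1, was at 19.9 ± 2.48 FPKM in WT and 22.6 ± 3.08 FPKM in cKO libraries, and the site-1 protease gene Mbtps1 at 13.6 ± 2.48 and 15.1 ± 1.24 FPKM. Srebf2 was 1.20 to 1.28 times Srebf1 in every library.

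Uptake and intracellular transport were represented by 13 genes, with a median of 0.17 and none past the threshold (limma, smallest adjusted p = 0.545). At an unadjusted p under 0.05 there was 1 lower and 1 higher, beside 2.94% and 3.87% of all tested genes, and these 2 genes had groups apart. Lipa, the lysosomal lipase that frees cholesterol from lipoprotein esters, was at 18.7, 21.5 and 18.0 FPKM in WT and at 11.6, 8.0 and 11.2 FPKM in cKO libraries (log2 difference -0.87, SE 0.21; limma, unadjusted p = 0.00422). The macrophage marker sums were also highest in WT replicates 1 and 2. In WT replicate 3 that sum lay inside the cKO range (308.8 FPKM, beside 202.3 to 333.6 FPKM), whereas Lipa stayed above all cKO libraries. Among the macrophage markers, Ctss and Fcgr3 also had WT replicate 3 above all cKO libraries, and the others did not. Ctss was at 62.0 FPKM in WT replicate 3 and at 25.6 to 37.6 FPKM in cKO libraries, and Fcgr3 at 19.6 and at 4.29 to 16.5 FPKM. The part of macrophages in the Lipa values was not tested. Lrp8, a receptor of the lipoprotein receptor family, was at 1.28, 1.84 and 3.12 FPKM in WT and at 3.33, 3.34 and 4.85 FPKM in cKO libraries (0.68, SE 0.29).

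Export, LXR and storage genes numbered 12, with a median of 0.01, none past the threshold (limma, smallest adjusted p = 0.563) and 2 of the 12 lower at an unadjusted p under 0.05, beside 2.94% of all tested genes. These 2 had groups apart with cKO lower, beside 5.01% of all tested genes. Smpdl3a, a phosphodiesterase gene that LXR induces in macrophages, was at 13.1, 12.9 and 6.65 FPKM in WT and at 5.90, 2.86 and 3.47 FPKM in cKO libraries (-1.22, SE 0.34). Without WT replicate 3 it passed (-1.51; limma, adjusted p = 0.0387), in a fit where 3.89% of all tested genes passed, and 1.42% with cKO lower. Cyp27a1, the sterol 27-hydroxylase, was at 10.1, 10.6 and 7.22 FPKM and at 6.36, 2.28 and 4.79 FPKM (-0.98, SE 0.33). Apoe, a lipoprotein component abundant in macrophages and steroidogenic cells, was at 149.4, 82.7 and 73.6 FPKM in WT and at 83.0, 60.0 and 46.7 FPKM in cKO libraries. The macrophage sums given above were highest in WT replicates 1 and 2, as were Smpdl3a and Cyp27a1. Apoe was highest in WT replicate 1 only, and its WT replicate 2 lay below cKO replicate 1. The part of macrophages in these values was not tested.

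**Figure D5:**
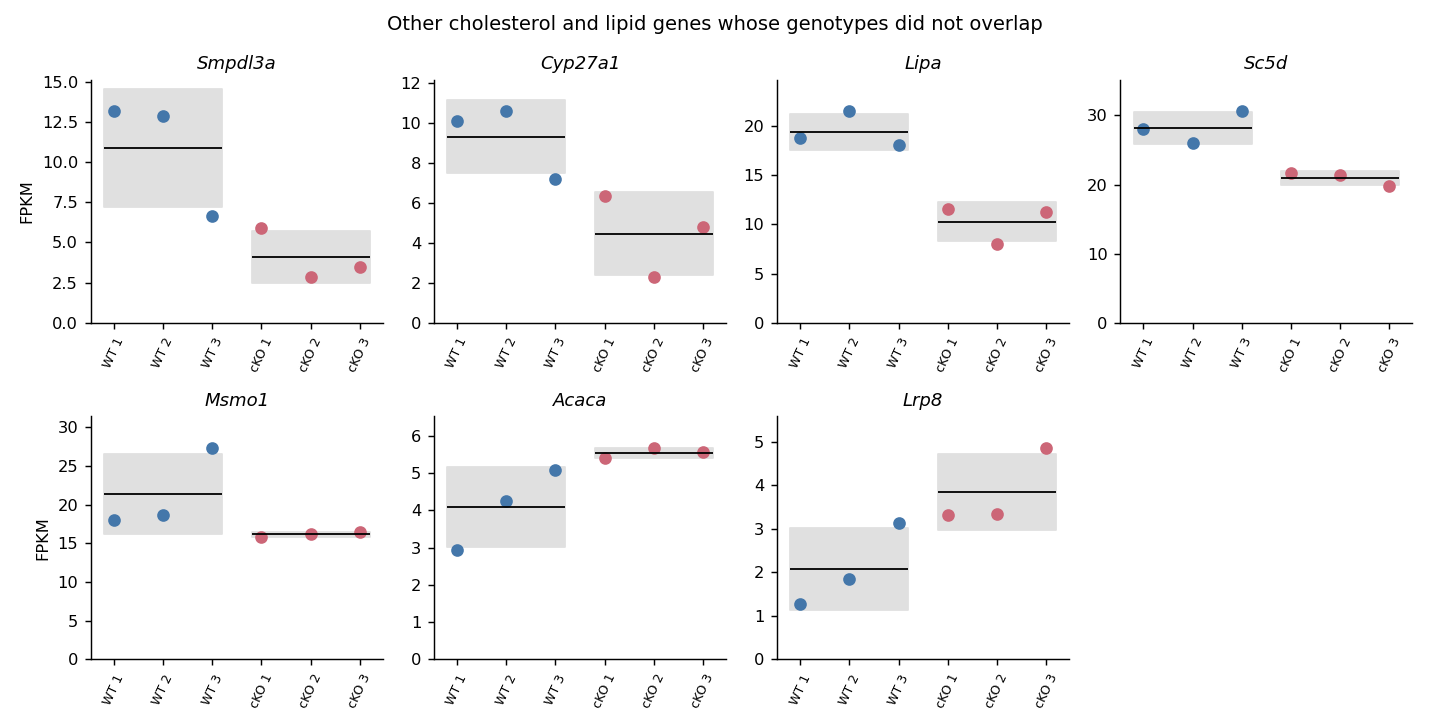
FPKM (vertical axes, from 0) by library of the 7 genes of the wider lists whose genotypes did not overlap, with group means and 1 SD (n = 3 each). Of these, 5 are lower in cKO and 2, Acaca and Lrp8, are higher; none passed the test across all genes with all 6 libraries.

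Over all 56 tested genes of the wider lists, 28 had a higher and 28 a lower value in cKO libraries, and groups lay apart in 7. Of these, 5 were lower and 2 higher in cKO, beside 5.01% and 6.28% of all tested genes.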

How the data were processed

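Values deposited by the authors were read as FPKM; no source names the unit, which was inferred because the values fall on whole multiples of 1 step per library after multiplication by exonic length (99.1% to 99.5% of low values in single-exon genes, within 0.02 of the fragment number). FastQC and HISAT2 2.1.0 and the genome build mm8 were named, per the submitters' processing notes; that build is older than many gene identifiers in the tables, so no coordinates of the authors' build are given. Which program, annotation and strand setting produced the counts is not given in the sources used here. Symbols came from GENCODE M21 and RefSeq (28932 of 29275 matched).

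The 12284 genes that reached 1 FPKM in 3 or more of the 6 libraries were fitted on log2(FPKM + 1), which understates changes of low genes, by limma 3.58.1 under R 4.3.3, with genotype as the sole term, a trended eBayes prior, two-sided p and Benjamini-Hochberg adjustment (threshold 0.05). The fit was tested on simulated data. Recovery was required there only at a spread below that of these data and for changes larger than those of the 8 genes. The test therefore does not show that changes of the size seen here would be found. Tables used Python 3.11.15. The genes and lists were chosen with earlier results of these data known. Named were all 8 genes, the 3 of each wider list with the smallest p, those whose genotypes did not overlap, the nearest profiles, and Arhgef15; Fdps, Ctsb and Insig2 were named after their values were seen. The values of 2 further genes of the wider lists are not reported here. Alternatives were other filters, pseudocounts 0.1 and 5, quantile or median-ratio scaling, array weights, the replicate block and each library left out.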

Additional observations from a re-analysis of the deposited data

How the results depend on the processing

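Counting error as the Poisson SD, known for 7 of the 8 genes, was at most 6.68% of a value, and the precision also rests on 3 libraries per genotype. None of the 8 genes passed in any of the 8 other settings or with any of the 6 libraries left out (Lss and Lrp8 lay below the filter of 5 FPKM and have no value there). Over the 21 named genes with values under these alternatives, 279 of 292 values kept their direction and their side of the threshold, 12 changed sign and 1 crossed it (Smpdl3a without WT replicate 3); the cause was not tested. The sign changes were Hmgcs1 and Insig1 with median-ratio scaling (-0.0045 and -0.010) and with quantile normalization (-0.025 and -0.020), and the rest came with a library left out: ranges were -0.16 to 0.24 for Hmgcs1, -0.18 to 0.11 for Sqle, -0.12 to 0.43 for Idi1 and -0.23 to 0.29 for Insig1. Of the 8 genes, 2 had groups apart (Fdft1 and Lss), 1 with quantile normalization (Fdft1). Over all tested genes 2 passed; the count was 0 without the filter and 0 with the replicate block, and 0 to 478 with a library left out, the highest without WT replicate 3. Genes of the wider lists passed in 0 cases, and in 0 to 1 with a library left out. The shared replicate numbers did not pair the samples (correlations of same-numbered deviations 0.14, 0.032 and -0.21 for replicates 1, 2 and 3), and the replicate block changed no other count. The array weights stopped short of their convergence tolerance.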

Other observations

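Genes of fatty acid synthesis, the branch of lipid metabolism driven more by SREBP-1, had a median difference of 0.10 over 9 tested genes, and none passed (limma, smallest adjusted p = 0.788; 0 with an unadjusted p under 0.05). Acaca, the acetyl-CoA carboxylase gene, was at 2.95, 4.24 and 5.09 FPKM in WT and at 5.40, 5.67 and 5.55 FPKM in cKO libraries, the sole gene of this list with groups apart. Its cKO libraries lay within a narrow band, whereas the WT libraries spread widely. Scd2, a stearoyl-CoA desaturase, was at 60.3, 72.8 and 114.5 FPKM in WT and at 126.3, 104.5 and 101.0 FPKM in cKO libraries, with WT replicate 3 inside the cKO range. Acly, which supplies cytosolic acetyl-CoA, was at 25.4, 33.2 and 43.3 FPKM and at 40.2, 40.6 and 37.3 FPKM. Here WT replicate 3 lay above all cKO libraries and WT replicates 1 and 2 below them.

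The paralogs Insig1 and Insig2 stood in different proportions from library to library. Insig2 was at 5.65, 6.53 and 26.1 FPKM in WT and at 15.9, 11.8 and 11.3 FPKM in cKO libraries. The ratio of Insig2 to Insig1 was 0.511, 0.448 and 3.75 in WT and 2.17, 0.730 and 1.09 in cKO libraries. Insig2 was thus the more abundant in WT replicate 3 and in cKO replicates 1 and 3, and Insig1 in the others. The ratio was looked at after the values were seen and was not tested between the genotypes.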
